A study of Homo sapiens with 6 samples.

Results

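The stretch described here is positions 1311 to 1900 of human 28S rRNA, the large ribosomal RNA of the 60S subunit, numbered as in the deposited reference sequence. It was chosen by position alone, and a position entered a comparison where at least 100 reads crossed it in both libraries compared. All 590 positions met that minimum in all 3 comparisons, out of 6939 positions of 18S and 28S rRNA, of which 6935, 6924 and 6912 met it. The stretch holds 10 listed pseudouridines (Ψ1536, Ψ1582, Ψ1677, Ψ1683, Ψ1744, Ψ1779, Ψ1781, Ψ1782, Ψ1860 and Ψ1862), the 1-methyladenosine m1A1322, 10 ribose-methylated positions and a pair of adjacent uridines, U1791 and U1792, listed with them. The reference base matched the list at 23 of 23 of these positions. The stretch is labelled as domain II, and that label was not checked because no secondary structure was used.

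The study asked how the context of a pseudouridine bears on the mutations and stops it leaves in cDNA. RNA longer than the short-RNA fraction came from HEK293T/17 cells, a clonal human embryonic kidney line, and the fragments were either treated with the carbodiimide CMC or mock-treated. Each was then copied with HIV reverse transcriptase and magnesium (HIV RT), with SuperScript III and manganese (SSIII-Mn) or with SuperScript III and magnesium (SSIII-Mg). The 6 combinations of treatment and enzyme condition have 1 library each, so no difference has a replicate check, and each call below compares 2 libraries and not 2 treatments. An alkaline step after CMC is not described in the labels. rRNA tables hold no cell type markers, so the cell line label was not checked.

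Pseudouridine is an isomer of uridine in which the base is joined to the ribose through carbon. In rRNA it is made mostly by H/ACA small nucleolar ribonucleoproteins, which pair with the sequence around the target uridine. CMC adds a bulky group to uridine, guanosine and pseudouridine, and the adduct on pseudouridine is the most stable. A reverse transcriptase that meets the adduct may fall off, leaving a cDNA that ends beside it, or may pass it and insert another base. The methyl group of 1-methyladenosine sits on the pairing face of the base and blocks or miscodes reverse transcription without any chemical treatment. A methyl group on the ribose leaves base pairing possible.

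The bases next to the modified ones are shown first, because the results below are also given by the base that the enzyme copied just before reaching the site (the 3′ neighbour in the RNA) and several sites lie in runs of uridine. Sequences are those of the deposited reference, 5′ to 3′ with T for U. In the first set each modified base is in capitals, and a line with several capitals is a cluster.
m1A1322: gacccgtcttgAaacacggaccaa
Ψ1536: aagatggtgaacTatgcctgggcag
Ψ1582: ggtggaggtccgTagcggtcctgac
Ψ1677: ccgaagtttcccTcaggatagctgg
Ψ1683: tttccctcaggaTagctggcgctct
Ψ1744: cggtaaagcgaaTgattagaggtct
Ψ1779, Ψ1781 and Ψ1782: acgatctcaaccTaTTctcaaactttaa
Ψ1860 and Ψ1862: ctagtgggccacTtTtggtaagcagaa

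The second set holds the listed pair and unlisted uridines called higher for stops in all 3 conditions, among those with the largest differences. U1861 and U1866, also among them, lie in the window of Ψ1860 and Ψ1862, and U1748 lies in that of Ψ1744 too. The uridine in question is in capitals.
U1791 and U1792: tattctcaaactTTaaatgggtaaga
U1620: gtccgacctgggTataggggcgaaa
U1748: aaagcgaatgatTagaggtcttggg
U1800: actttaaatgggTaagaagcccggc
Of the 10 pseudouridines, 4 stand before adenosine (Ψ1536, Ψ1582, Ψ1683 and Ψ1779), and so do U1792, U1620, U1748 and U1800.

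A pair of shares is given for each position. The mismatch share is the percent of the reads crossing a position that carry a base other than the reference. The stop share is the number of stops in percent of the sum of stops and crossing reads. Stops are given at the position where the tables book them, and a read enters the crossing counts 2 nt 3′ of that position. The libraries hold 21206954 to 47002169 ended reads over both rRNAs, 2284802 to 5521643 of them in the stretch. The median position of the stretch was crossed by 86995.5 to 324545 reads and the least covered one by 17218 to 101314, depending on the library. At the listed pseudouridines and the listed pair of uridines, the 95% Wilson interval of a mismatch share reached at most 0.359 points to either side. That of a stop share reached 0.523 points there. Such intervals cover counting error only, because reads copied by PCR without molecular identifiers are not independent molecules.

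A position was called where a two-sided Fisher's exact test on the reads of the 2 libraries gave a value under 0.05 after Benjamini-Hochberg adjustment across every position tested in 18S and 28S rRNA, and the shares differed by at least 5 points. For the mismatch share, 7 of 590 positions were called higher with CMC in HIV RT (1.19%, against 1.05% of all tested positions), 5 in SSIII-Mn (0.847%, against 1.29%) and 0 in SSIII-Mg (against 0.159%). No position was called lower, where the background was 0.101% in HIV RT, 0.332% in SSIII-Mn and 0.0868% in SSIII-Mg. Without the bar of 5 points the test passed at 308, 480 and 405 positions higher and at 197, 61 and 39 lower, so the bar decides the calls. At an unadjusted p under 0.05 these counts were 308, 483 and 414 higher and 200, 63 and 44 lower. The matching shares over both rRNAs are not given, so these counts are not read as a trait of the stretch. Over both rRNAs the mismatch share was higher with CMC, passed or not, at 3912 of 6935, 5385 of 6924 and 5606 of 6912 tested positions.

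For the stop share, 52 positions were called higher in HIV RT (8.81%, against a background of 10.1%), 45 in SSIII-Mn (7.63%, against 8.38%) and 51 in SSIII-Mg (8.64%, against 9.22%). Called lower were 14 positions in HIV RT (2.37%, against 3.66%), 3 in SSIII-Mn (0.508%, against 1.98%) and 4 in SSIII-Mg (0.678%, against 1.84%). These shares lie near or under those of both rRNAs, so the stretch held no larger share of stop calls than both rRNAs together. Uridine made up 16.6% of the stretch and 33 of the 52 higher stop calls in HIV RT, 25 of 45 in SSIII-Mn and 42 of 51 in SSIII-Mg. Stop calls at uridine were not particular to the stretch. Outside it, 38.1% of uridines were called higher in HIV RT, 26.4% in SSIII-Mn and 43.9% in SSIII-Mg.

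**Figure D1:**
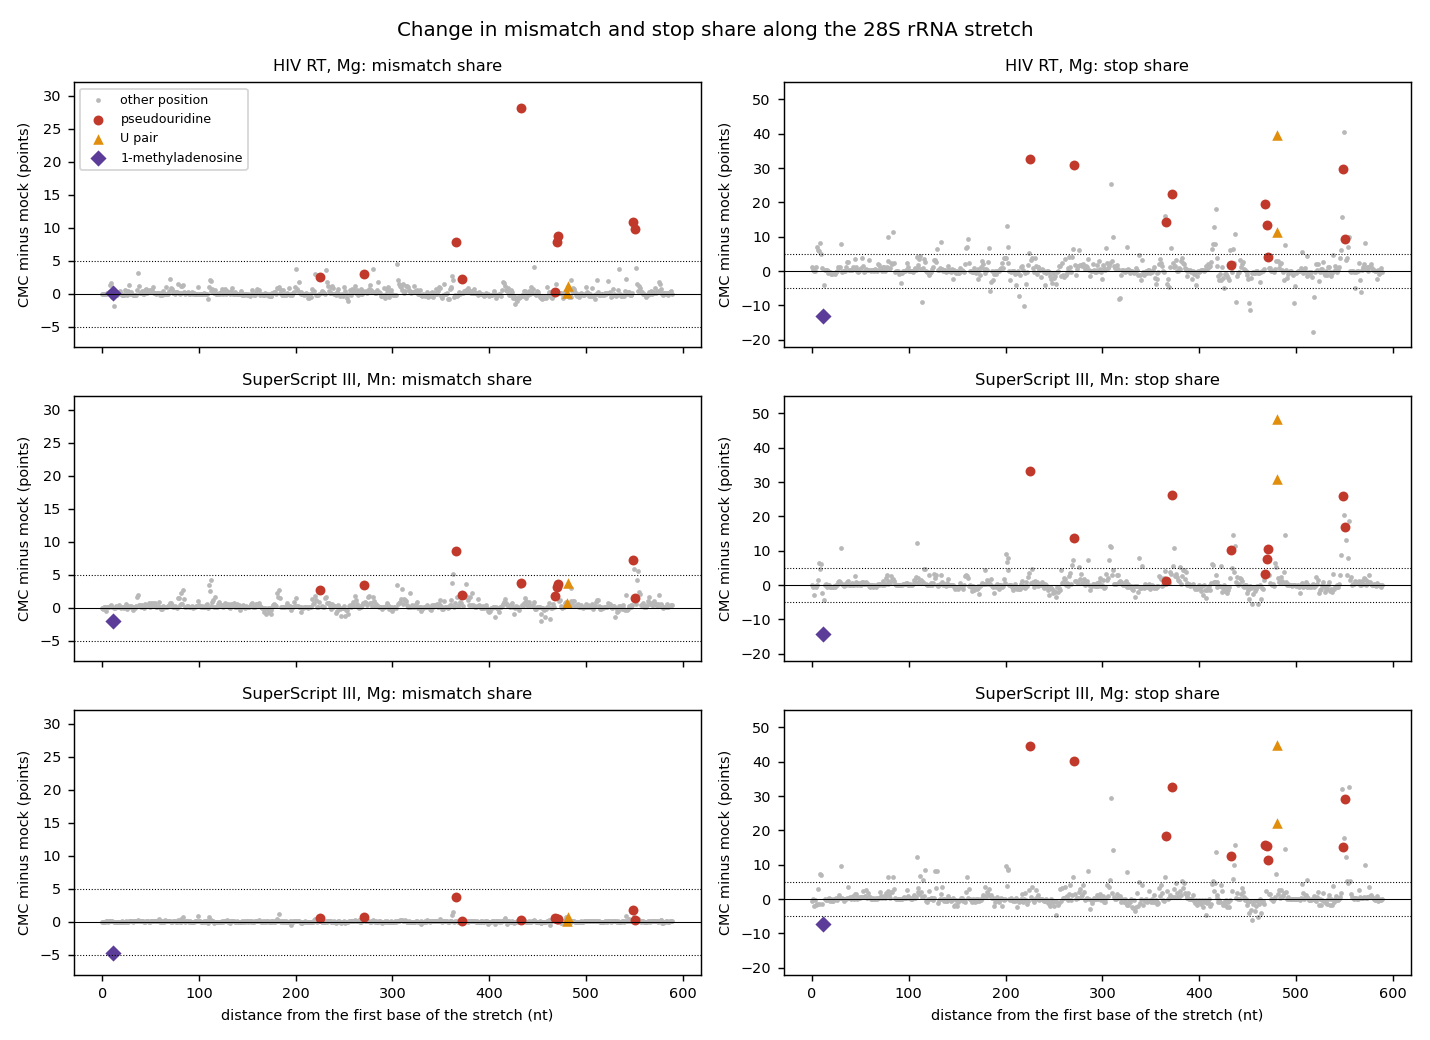
CMC minus mock difference (percentage points) in mismatch share (left) and stop share (right) for each of the 590 positions, by distance in nt from the first base of the stretch, in the 3 conditions; dotted lines mark 5 points. Pseudouridines stand out of the mismatch plot for HIV RT, with 6 of 10 above the line, and of the stop plot for SSIII-Mg, with 10 of 10 above it, while 1-methyladenosine lies under the lower line in all 3 stop plots.

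The median mismatch difference of the 10 pseudouridines was largest in HIV RT, but not with the 5 that have no other listed one within 3 nt, where it was 3.02 points in HIV RT, 3.44 in SSIII-Mn and 0.633 in SSIII-Mg. Over all 10, the median mismatch share in HIV RT was 8.27% with CMC and 0.604% in the mock library, and the median difference was 7.83 points (range 0.319 to 28.1), beside 0.898 points at the 86 unlisted uridines of the stretch and 0.0542 over all positions tested. In SSIII-Mn the median was 3.44% with CMC and 0.0949% without, a difference of 3.27 points against 0.684 at unlisted uridines and 0.195 over all positions. In SSIII-Mg it was 0.516% and 0.0434%, a difference of 0.474 points against 0.133 and 0.0529. The mismatch share was higher with CMC at 10 of 10 sites in each condition, and the call was passed by 6 sites in HIV RT (Ψ1677, Ψ1744, Ψ1781, Ψ1782, Ψ1860 and Ψ1862), by Ψ1677 and Ψ1860 in SSIII-Mn and by none in SSIII-Mg.

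Ψ1744 had the largest mismatch difference of the stretch in HIV RT. Its mismatch share was 29.1% with CMC and 1.01% in the mock library in HIV RT, 3.85% and 0.102% in SSIII-Mn, and 0.338% and 0.114% in SSIII-Mg. Only the HIV RT library with CMC was high. Its rise of 28.1 points in HIV RT exceeded that in SSIII-Mn by 24.4 points (95% interval 24.0 to 24.7) and that in SSIII-Mg by 27.9 points (27.6 to 28.2), intervals that cover counting error only. The stop share at the same base ran the other way over the conditions. It was 4.51% with CMC and 2.63% without in HIV RT, 11.8% and 1.70% in SSIII-Mn, and 14.1% and 1.62% in SSIII-Mg, called in both SuperScript III conditions and not in HIV RT. Of the 3 conditions, HIV RT thus had the highest mismatch share and the lowest stop share with CMC at Ψ1744.

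Ψ1677 gave the highest mismatch shares of the 10 sites in both SuperScript III conditions. At Ψ1677 the mismatch share was 8.10% and 0.296% in HIV RT (CMC, then mock), 8.77% and 0.215% in SSIII-Mn, and 3.89% and 0.103% in SSIII-Mg. It was the only pseudouridine of the stretch above 2% with magnesium and SuperScript III. At Ψ1677 the stop share was 18.5% and 4.13% in HIV RT, 2.06% and 0.961% in SSIII-Mn, and 18.7% and 0.428% in SSIII-Mg. Exchanging magnesium for manganese with the same enzyme went with 17.2 points less stop difference at this base (95% interval of the difference of SSIII-Mn less SSIII-Mg, -17.5 to -16.8) and 4.77 points more mismatch difference (4.46 to 5.08).

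The other called mismatch sites lie in the 2 clusters. At Ψ1781 the mismatch share was 8.44% and 0.581% in HIV RT, 3.19% and 0.0883% in SSIII-Mn, and 0.468% and 0.0407% in SSIII-Mg. At Ψ1782 it was 9.75% and 0.975%, 3.73% and 0.0821%, and 0.424% and 0.0425% in the same order. Both were called in HIV RT alone, while Ψ1779, a base away from them, did not pass the bar in any condition. At Ψ1779 the mismatch share was 0.437% and 0.118%, 1.82% and 0.0746%, and 0.563% and 0.0422%, the one site of the 10 where the SuperScript III libraries with CMC both exceeded that of HIV RT.

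In the cluster 3′ of these, Ψ1860 and Ψ1862 were similar in HIV RT and apart in SuperScript III. At Ψ1860 the mismatch share was 11.5% and 0.610% in HIV RT, 7.39% and 0.164% in SSIII-Mn, and 1.96% and 0.128% in SSIII-Mg. At Ψ1862 it was 10.5% and 0.765%, 1.47% and 0.0353%, and 0.249% and 0.0383%. The uridine between them, U1861, is on no list and was called too: its mismatch share was 10.1% and 0.634% in HIV RT, 5.99% and 0.132% in SSIII-Mn, and 0.712% and 0.0626% in SSIII-Mg. It was the only unlisted uridine called for mismatches in HIV RT.

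The remaining sites stayed under 4% in every library. At Ψ1536 the mismatch share was 3.32% and 0.785% in HIV RT, 2.88% and 0.221% in SSIII-Mn, and 0.722% and 0.0893% in SSIII-Mg. At Ψ1582 it was 3.61% and 0.597%, 3.69% and 0.254%, and 0.707% and 0.0444%. At Ψ1683 it was 2.57% and 0.362%, 1.98% and 0.0584%, and 0.224% and 0.0344%. These 3 sites and Ψ1779 are the 4 that stand before adenosine.

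**Figure D2:**
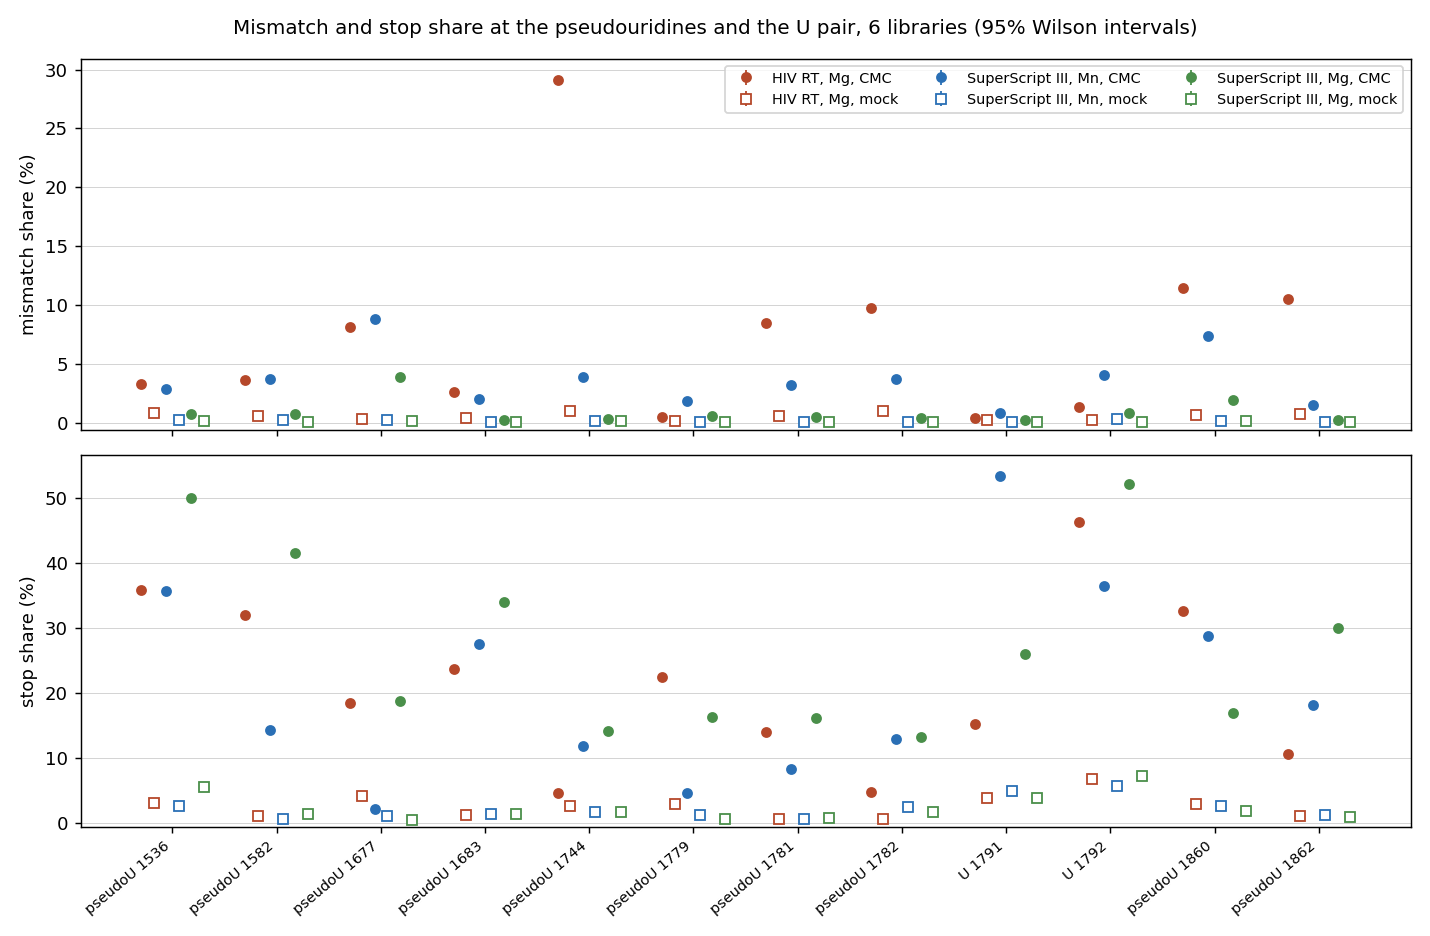
Mismatch share (top) and stop share (bottom), in percent, at the 10 pseudouridines and the U pair in the 6 libraries; filled circles are CMC libraries, open squares mock libraries, and bars are 95% Wilson intervals, mostly smaller than the points. Ψ1744 stands at 29.1% mismatch in the HIV RT library with CMC, and Ψ1536, U1791 and U1792 reach stop shares of 49.98%, 53.4% and 52.1%.

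With CMC, 10 of 10 pseudouridines had the higher stop share in each condition, and it was called at all 10 in SSIII-Mg. The median stop share of the 10 sites was 20.4% with CMC and 1.90% without in HIV RT, 13.6% and 1.19% in SSIII-Mn, and 17.8% and 1.32% in SSIII-Mg. The median differences were 16.9, 12.1 and 17.0 points, beside 2.50, 1.20 and 3.51 points at the unlisted uridines and 0.154, 0.0238 and 0.00510 over all positions tested. The call was passed by 8 sites in HIV RT (not Ψ1744 and Ψ1782), by 8 in SSIII-Mn (not Ψ1677 and Ψ1779) and by 10 in SSIII-Mg, and 6 sites were called in all 3.

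Ψ1536 had the highest stop share of the 10 with CMC in every condition. At Ψ1536 the stop share was 35.8% and 3.08% in HIV RT, 35.6% and 2.52% in SSIII-Mn, and 49.98% and 5.43% in SSIII-Mg. At Ψ1582 it was 31.9% and 1.001%, 14.2% and 0.546%, and 41.5% and 1.30%. The manganese library was the lowest of the 3 CMC libraries at Ψ1582, which was not so at Ψ1683. At Ψ1683 the stop share was 23.6% and 1.16% in HIV RT, 27.4% and 1.25% in SSIII-Mn, and 33.99% and 1.35% in SSIII-Mg.

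The 3 sites of the first cluster gave fewer stops than these. At Ψ1779 the stop share was 22.4% and 2.87% in HIV RT, 4.49% and 1.12% in SSIII-Mn, and 16.3% and 0.621% in SSIII-Mg. At Ψ1781 it was 13.9% and 0.552%, 8.20% and 0.492%, and 16.1% and 0.761%. At Ψ1782, the first of the cluster that the enzyme meets, it was 4.79% and 0.618%, 12.9% and 2.44%, and 13.1% and 1.64%. In HIV RT the stop share with CMC therefore was higher at each next of the 3 sites along the path of the enzyme, and in SSIII-Mn it was lower at each next one. The adenosine between them, A1780, was also called in HIV RT and SSIII-Mn. At A1780 the stop share was 21.5% and 1.54% in HIV RT, 8.99% and 1.02% in SSIII-Mn, and 4.31% and 2.05% in SSIII-Mg. In both clusters, the stops of a base itself were not separated from those booked beside the site met before it.

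In the second cluster stops were spread over at least 5 adjacent bases. At Ψ1862, met first, the stop share was 10.5% and 1.05% in HIV RT, 18.2% and 1.12% in SSIII-Mn, and 30.04% and 0.910% in SSIII-Mg. At U1861 it was 42.6% and 2.09%, 21.7% and 1.34%, and 19.1% and 1.15%, and in HIV RT this unlisted base gave the largest stop difference of the stretch. At Ψ1860 it was 32.5% and 2.83%, 28.7% and 2.60%, and 16.8% and 1.74%. The order of these 3 bases turned with the enzyme and ion, U1861 leading in HIV RT, Ψ1860 in SSIII-Mn and Ψ1862 in SSIII-Mg. At C1859, the base 5′ of Ψ1860, the stop share was 17.8% and 2.09% in HIV RT, 27.3% and 1.78% in SSIII-Mn, and 34.8% and 2.65% in SSIII-Mg, called in all 3. At U1863 it was 3.84% and 0.653%, 17.0% and 3.92%, and 14.4% and 2.08%, called in both SuperScript III conditions.

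The 5 pseudouridines with no other listed one within 3 nt (Ψ1536, Ψ1582, Ψ1677, Ψ1683 and Ψ1744) were read together with their neighbours. Unlisted uridines lie within 3 nt of Ψ1536 and Ψ1744, so a difference at a neighbour cannot be assigned to the pseudouridine alone. In SSIII-Mg the site itself had the largest stop difference of the 7 bases from 3 nt 5′ to 3 nt 3′ at 5 of 5 sites, with a median of 32.6 points at the site, 2.58 at the base 5′ of it and 1.36 at the base 3′ of it. In HIV RT the base 5′ of the site, which is copied next, was called at 5 of 5 sites, with a median difference of 6.51 points against 22.4 at the site and 1.79 on the 3′ side. At Ψ1677 and Ψ1744 the 5′ neighbour exceeded the site itself, by 16.1 against 14.4 points and by 6.25 against 1.88. In SSIII-Mn the medians were 3.44 points 5′, 13.6 at the site, 1.27 at 1 nt 3′ and 4.61 at 2 nt 3′. The last value is that of Ψ1536, where the base at 2 nt 3′ is itself an unlisted uridine. Ψ1744 (14.6 points at 2 nt 3′) and Ψ1683 (10.9) lay above it. At Ψ1744 that base lies between the site and U1748, which was called for stops in all 3 conditions. The mismatch difference was largest at the site itself at 5 of 5 sites in HIV RT and SSIII-Mg and at 4 of 5 in SSIII-Mn. The exception was Ψ1683, where the base 3 nt to the 3′ side reached 1.95 points against 1.92 at the site.

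**Figure D3:**
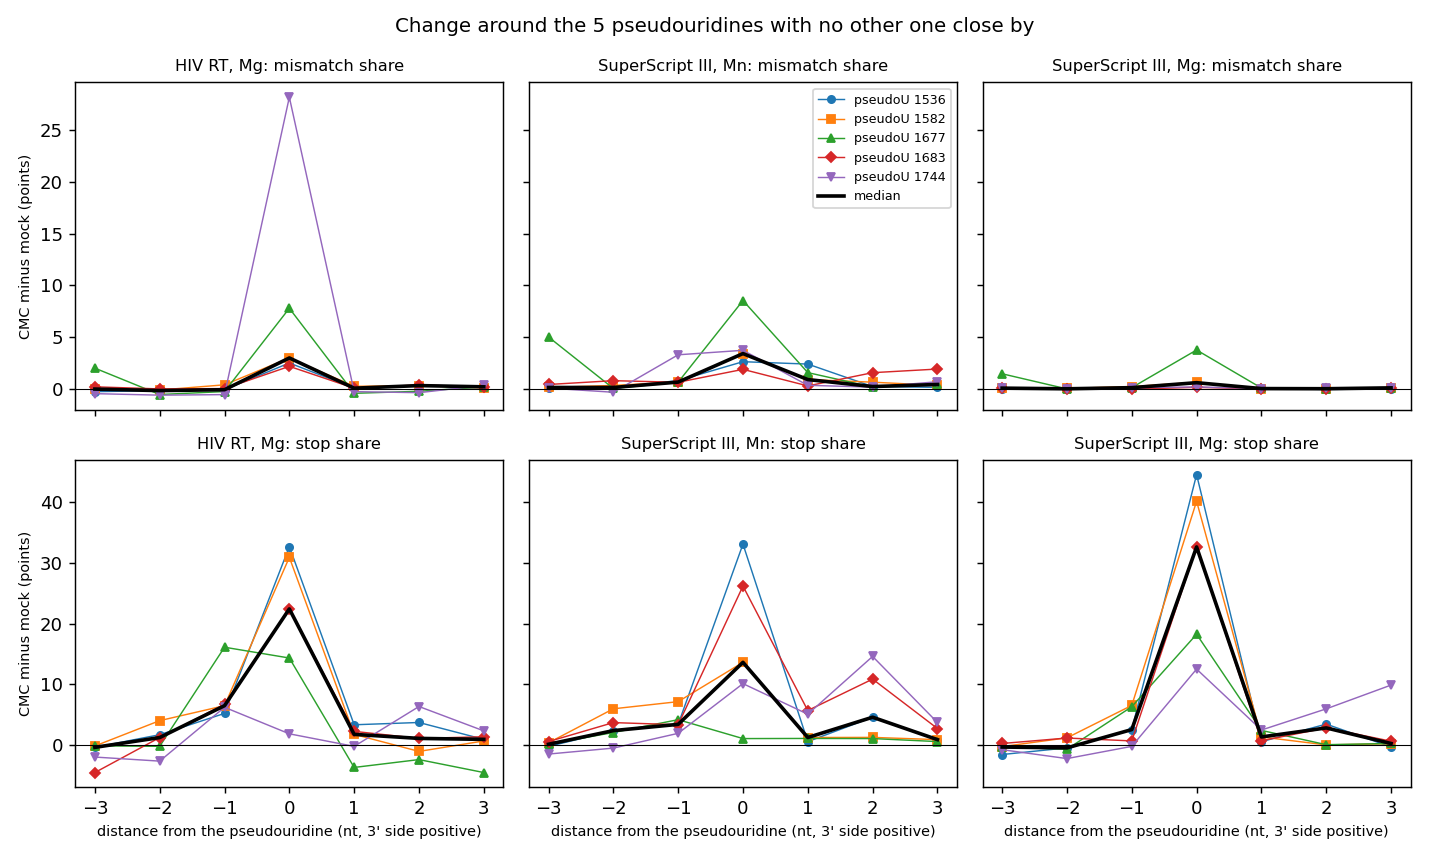
CMC minus mock difference (percentage points) in mismatch share (top) and stop share (bottom) at the 7 bases around each of the 5 pseudouridines with no other listed one within 3 nt; coloured lines are sites, the black line is their median, and the 3′ side is positive. The median peaks at the site in all 6 plots, and in the stop plot of HIV RT the base 5′ of the site is raised at every site.

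Stops at uridine differed by the base 3′ of it also among the 86 unlisted uridines. Before adenosine (13 uridines) the median stop difference was 7.52 points in HIV RT, 7.83 in SSIII-Mn and 9.64 in SSIII-Mg. Before cytidine (30 uridines) it was 1.23, 0.459 and 1.66 points. Uridines before guanosine (31) and before uridine (12) lay between, at 2.64, 1.08 and 3.48 points and at 3.21, 3.04 and 5.00 points. The call was passed by 9, 8 and 10 of the 13 uridines before adenosine and by 3, 0 and 5 of the 30 before cytidine. It was passed by 26.7%, 17.4% and 34.9% of the 86 unlisted uridines. Of all uridines outside the stretch, listed or not, 38.1%, 26.4% and 43.9% passed it, and the background for all bases was that given above. The ranges overlapped in each condition, for instance 1.32 to 25.5 points before adenosine and -0.542 to 6.90 before cytidine in HIV RT. In the mock libraries the medians before adenosine were also the higher, 2.42%, 2.62% and 4.64% against 0.969%, 1.85% and 1.12% before cytidine.

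The mismatch share of unlisted uridines had another order. Before adenosine the median difference was 0.465 points in HIV RT, 0.500 in SSIII-Mn and 0.124 in SSIII-Mg, and before guanosine it was 1.75, 1.37 and 0.157. Before cytidine it was 0.753, 0.424 and 0.0967 points, under the value before adenosine in both SuperScript III conditions, and before uridine 1.004, 0.665 and 0.175. Among the pseudouridines in HIV RT, the 4 before adenosine had mismatch differences of 0.319 to 3.02 points and the 6 before another base 7.80 to 28.1, without overlap. In SSIII-Mn the ranges overlapped (1.75 to 3.44 against 1.44 to 8.55), as they did in SSIII-Mg (0.189 to 0.663 against 0.211 to 3.78). For the stop share the 4 before adenosine had the higher median difference in each condition, 26.7 against 11.4 points in HIV RT, 19.9 against 10.3 in SSIII-Mn and 36.4 against 15.2 in SSIII-Mg, with ranges that overlapped. With 4 sites against 6 this is a description of these bases. Of the 6 sites before another base 4 lie in the clusters, against Ψ1779 alone of those before adenosine.

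The base read at a mismatched pseudouridine was mostly cytidine. Cytidine led at 9 of 10 sites in HIV RT with CMC and 7 without, at 7 and 10 in SSIII-Mn, and at 9 and 9 in SSIII-Mg. At Ψ1677 it made up 97.4% of 2899 mismatched reads in the HIV RT library with CMC and 58.3% of 756 in the mock library, and at Ψ1744 95.5% of 21911 and 54.8% of 1982. The mixture was thus sharper with CMC at both sites. At Ψ1781 adenosine led with CMC in each condition, with 59.8%, 57.3% and 51.0% of mismatched reads. At Ψ1860 adenosine made up 40.1% in HIV RT, 74.0% in SSIII-Mn and 25.5% in SSIII-Mg, so the leading base changed with the condition. At Ψ1683 guanosine led in the SSIII-Mn library with CMC, with 48.7% of 889 mismatched reads.

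**Figure D4:**
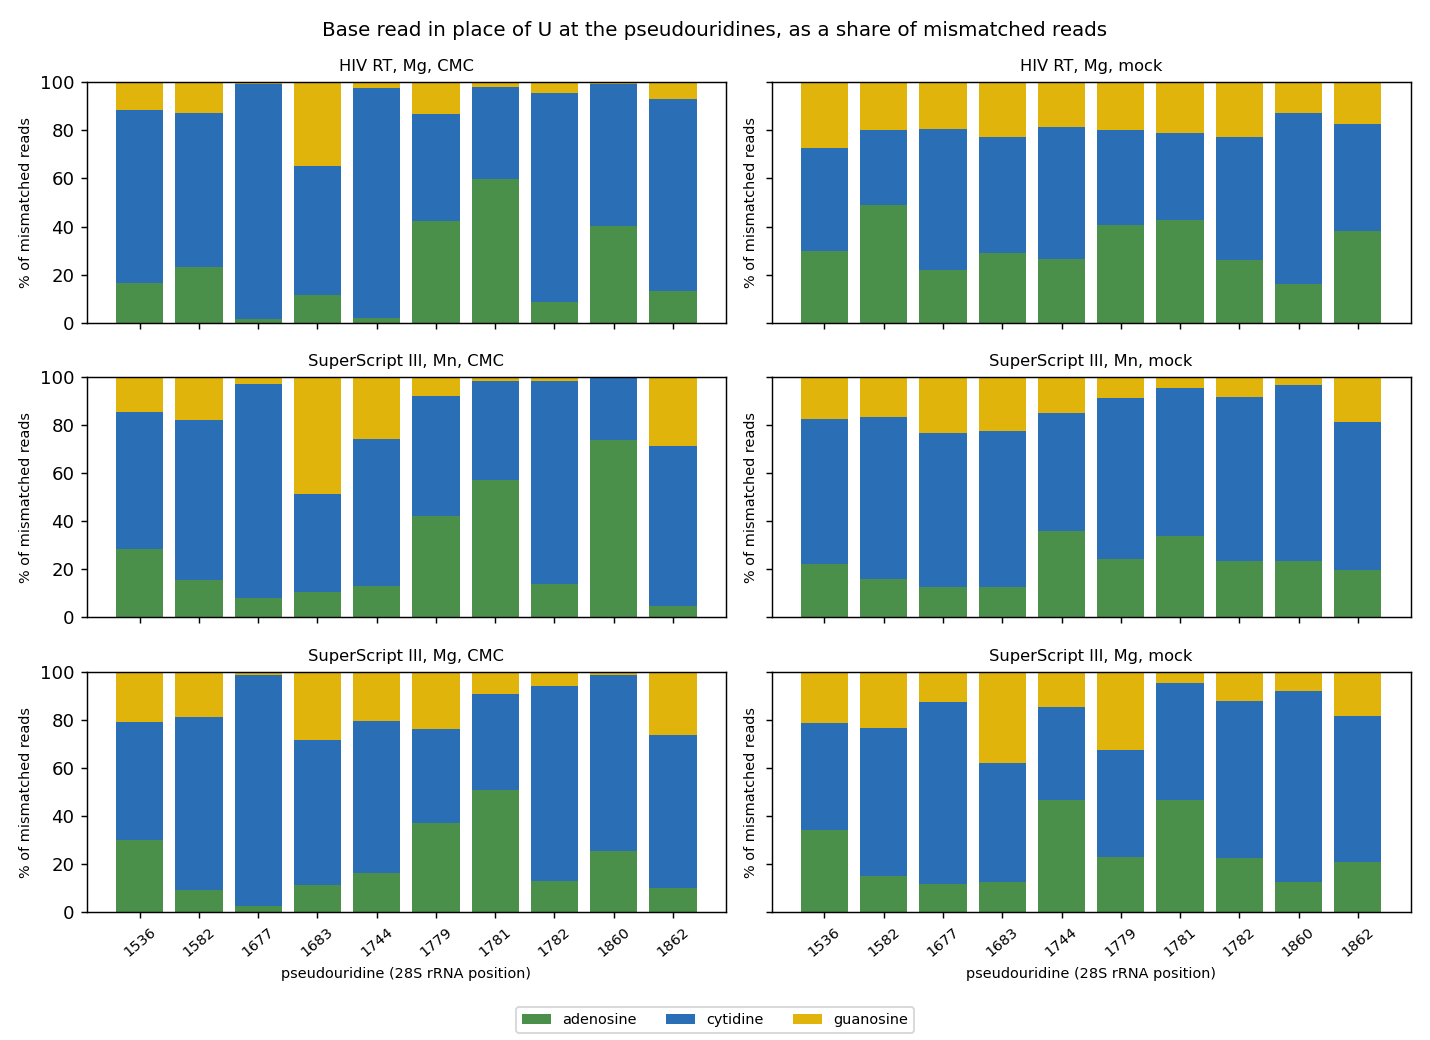
Share of mismatched reads (percent) with adenosine, cytidine or guanosine in place of uridine at each of the 10 pseudouridines, CMC libraries left and mock libraries right, for the 3 conditions. Cytidine leads at most sites, while adenosine leads at Ψ1781 in all 3 CMC libraries and at Ψ1860 in the SSIII-Mn library with CMC.

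The leading base was the same as the base 5′ of the site at 4 or 5 of the 10 sites in each library (5 in HIV RT with CMC, 4 in its mock library, 4 and 4 in SSIII-Mn, 5 and 5 in SSIII-Mg). Cytidine is the 5′ base at Ψ1536, Ψ1677, Ψ1779 and Ψ1860, and it led at most sites whatever the 5′ base. The count therefore cannot separate a link to the 5′ base from the lead of cytidine. A cDNA that lacks 1 base can appear as mismatches to the 5′ base in an aligner without gaps, which Bowtie 1.0 is. The part of this in the mismatch shares was not tested. It bears on C1674, which lies 3 nt 5′ of Ψ1677 at the far end of a run of cytidines preceded by uridines. At C1674 the mismatch share was 2.65% and 0.617% in HIV RT, 5.17% and 0.131% in SSIII-Mn, and 1.59% and 0.101% in SSIII-Mg, and it was called in SSIII-Mn. Of its mismatched reads in the CMC libraries, 92.5%, 98.7% and 95.6% had uridine, the base 5′ of it. Uridine led at C1674 in the mock libraries too, with 42.3%, 77.2% and 61.9%. The stop share there differed little between CMC and mock, by -0.101 points in HIV RT, 0.157 in SSIII-Mn and -0.299 in SSIII-Mg.

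The other unlisted position called for mismatches in SSIII-Mn was G1865, 3 nt 3′ of Ψ1862. At G1865 the mismatch share was 0.886% and 0.399% in HIV RT, 8.19% and 2.70% in SSIII-Mn, and 0.784% and 0.298% in SSIII-Mg. It was read as uridine in 87.0% of mismatched reads with CMC and 87.5% without in SSIII-Mn, so the base read was nearly the same with and without the treatment.

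The adjacent uridines U1791 and U1792 were called for stops in all 3 conditions and for mismatches in none. At U1791 the stop share was 15.2% and 3.73% in HIV RT, 53.4% and 4.90% in SSIII-Mn, and 26.0% and 3.76% in SSIII-Mg. At U1792 it was 46.3% and 6.65%, 36.5% and 5.59%, and 52.1% and 7.14%. U1792, met first by the enzyme, led with magnesium for both enzymes, and U1791 led with manganese, where its difference exceeded that in SSIII-Mg by 26.3 points (25.6 to 27.0). The mismatch share at U1791 stayed under 1% in each library (0.346% and 0.207%, 0.813% and 0.0407%, 0.191% and 0.0513%). At U1792 it was 1.33% and 0.217%, 4.04% and 0.285%, and 0.844% and 0.0637%. Its difference in SSIII-Mn, 3.76 points, lay above the median of 3.27 at the 10 pseudouridines. Adenosine led there in the CMC libraries, with 70.8%, 92.6% and 65.5% of mismatched reads. In the mock libraries it had 41.1%, 90.0% and 58.2%, and it led in both SuperScript III conditions but not in HIV RT.

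For stops, 20 positions of the stretch were called higher in all 3 conditions (3.39%, against 4.34% of the positions tested in all 3). They were 6 pseudouridines, both uridines of the pair, 9 unlisted uridines and 3 bases other than uridine. At U1620 the stop share was 37.5% and 11.997% in HIV RT, 12.8% and 1.72% in SSIII-Mn, and 33.5% and 4.04% in SSIII-Mg. At U1866 it was 13.02% and 2.96%, 21.2% and 2.62%, and 40.5% and 7.81%. Both exceeded several listed pseudouridines in SSIII-Mg. At U1748, 4 nt 3′ of Ψ1744, it was 13.7% and 2.96%, 12.2% and 0.929%, and 20.4% and 4.64%. At U1800 it was 16.6% and 9.04%, 22.5% and 8.02%, and 22.0% and 7.57%. The mismatch shares of these 4 uridines with CMC were 1.57%, 2.10%, 3.55% and 0.827% in HIV RT, and none was called. No position of the stretch was called for mismatches in all 3 conditions, where the background was 0.0723% higher and 0.0289% lower.

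The 1-methyladenosine m1A1322 was the only position of the stretch with at least 5% mismatches in all 6 libraries, and its signal did not need CMC. At m1A1322 the mismatch share was 53.2% and 53.1% in HIV RT, 32.03% and 34.1% in SSIII-Mn, and 14.3% and 19.0% in SSIII-Mg. The stop share was 65.0% and 78.0% in HIV RT, 63.2% and 77.5% in SSIII-Mn, and 79.9% and 87.2% in SSIII-Mg. Without CMC, HIV RT thus gave the most mismatches and SSIII-Mg the most stops. The stop share was lower with CMC in each, with differences of -12.9, -14.3 and -7.33 points, and m1A1322 was the only position of the stretch called lower in all 3 conditions (0.169%, against 0.231%). Uridine was the leading base in all 6 libraries, with 76.6% of mismatched reads in the HIV RT mock library, 72.9% in that of SSIII-Mn and 67.9% in that of SSIII-Mg. Guanosine had 5.68%, 19.7% and 24.8% of them.

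Stops were also booked at the bases beside m1A1322. At G1321, the base copied after it, the stop share was 24.6% and 23.6% in HIV RT, 7.18% and 9.48% in SSIII-Mn, and 8.57% and 10.02% in SSIII-Mg. At A1323, the base copied before it, it was 5.25% and 9.39%, 7.40% and 11.6%, and 16.6% and 23.6%. HIV RT thus had more stops 5′ of the site and SSIII-Mg more 3′ of it, with and without CMC. At C1318 the stop share was 17.7% and 11.8%, 20.9% and 14.4%, and 12.7% and 14.0%. The uridines U1319 and U1320, 3 and 2 nt 5′ of the methylated base, had stop shares of 11.6% and 3.29%, 7.25% and 2.55%, and 8.99% and 1.68% at U1319, and 8.82% and 3.71%, 14.8% and 8.48%, and 15.4% and 8.40% at U1320, which was called in all 3 conditions.

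**Figure D5:**
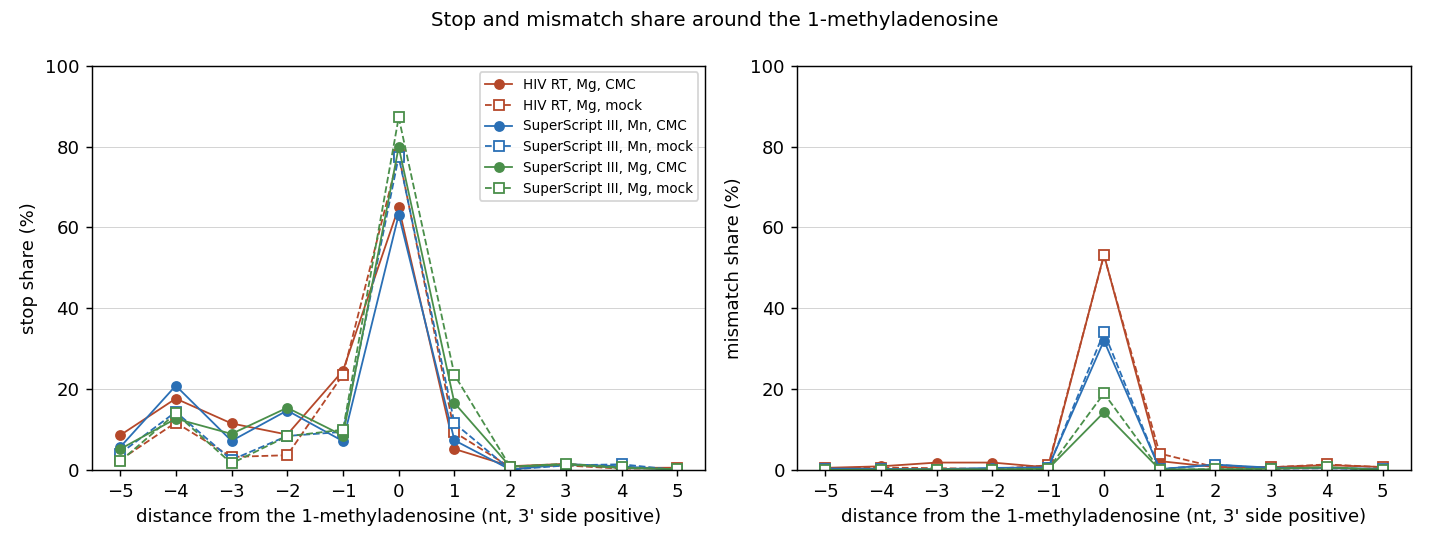
Stop share (left) and mismatch share (right), in percent, from 5 nt 5′ to 5 nt 3′ of the 1-methyladenosine in the 6 libraries; filled circles with solid lines are CMC libraries and open squares with dashed lines mock libraries. The stop share peaks at the methylated base at 63.2% to 87.2%, and the base 5′ of it is high in HIV RT alone of the 3 conditions, at 24.6% and 23.6%.

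The ribose-methylated positions (G1316, A1326, C1340, G1522, A1524, A1534, G1625, G1760, A1871 and C1881) were read without CMC, beside the median of the unlisted positions with the same base in the same library. As many unlisted positions lie above such a median as below it, so a count near 5 of 10 is also the share of unlisted positions. The stop share at the methylated position was above that median at 4 of 10 in HIV RT, 4 in SSIII-Mn and 2 in SSIII-Mg. At the base 3′ of it, which is copied just before, the count was 6, 9 and 7. The largest value at a methylated position was that of G1522 in HIV RT, 10.3% against 1.61% in SSIII-Mn and 0.559% in SSIII-Mg. At G1316 it was 9.82% in HIV RT, 3.73% in SSIII-Mn and 4.88% in SSIII-Mg. The mismatch share was above the median at 5, 3 and 5 of the 10. A1326 had 0.741% mismatches in the SSIII-Mg mock library, where the median unlisted adenosine had 0.0858%.

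With CMC, G1316 was the only ribose-methylated position called, for stops in HIV RT (16.7% with CMC and 9.82% without). It lies 6 nt 5′ of m1A1322. In SSIII-Mn it had 3.78% and 3.73%, and in SSIII-Mg 3.59% and 4.88%.

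Positions called lower with CMC were few, and those with the largest falls were purines or cytidine. At G1829 the stop share in HIV RT was 4.72% with CMC and 22.3% without, a fall by 17.6 points, while it was under 1% in all 4 SuperScript III libraries. At G1764 it was 3.33% and 14.7% in HIV RT, and 1.18% at most in SuperScript III. At both bases each HIV RT library was above every SuperScript III library, and the mock library was the higher of the HIV RT pair. In SSIII-Mg the largest fall outside m1A1322 was that of A1323 (-6.96 points), which was -4.22 points and not called in SSIII-Mn. A1766 and C1772 were called lower in both SuperScript III conditions. At A1766 the stop share was 2.30% and 7.65% in SSIII-Mn and 1.97% and 8.04% in SSIII-Mg, and at C1772 it was 1.70% and 7.31% and 1.54% and 6.86%, against 1.36% at most in HIV RT at either base.

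Without CMC the stop share differed at more positions between HIV RT and SSIII-Mg than between the ions. The HIV RT and SSIII-Mg mock libraries differed in stop share by at least 5 points at 47 of the 590 positions, 36 higher and 11 lower in HIV RT, and the SSIII-Mn and SSIII-Mg mock libraries at 4, all lower in SSIII-Mn. Over both rRNAs the shares of positions were 10.7% and 2.27%. The mismatch share differed by at least 5 points at 1 position of the stretch in each of these comparisons, and over both rRNAs at 0.680% of positions between HIV RT and SSIII-Mg and at 1.20% between the ions. The median mismatch share of the stretch was 0.617% in HIV RT, 0.314% in SSIII-Mn and 0.0844% in SSIII-Mg. It was higher in HIV RT than in SSIII-Mg at 573 of 590 positions. The names of the deposited HIV RT tables mention read edges and those of the SuperScript III tables do not, and whether processing differed was not tested.

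Set side by side, the rise at the pseudouridines in mismatch share was larger in HIV RT than in SSIII-Mg at 9 of 10 sites and larger in SSIII-Mn than in SSIII-Mg at 10 of 10, with a median of 5.72 and 2.72 points more. HIV RT exceeded SSIII-Mn at 6 of 10 (median 1.95 points, range -1.43 to 24.4), and the 95% counting interval held 0 at 1 of these 10, Ψ1536. For the stop share, HIV RT was the lower at 8 of 10 sites against SSIII-Mg (median -8.26 points) and SSIII-Mn at 9 of 10 (median -9.55 points). HIV RT and SSIII-Mn divided evenly, 5 sites each way, with differences from -8.26 to 17.3 points.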

How the data were processed

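The authors deposited 2 tables per library, 12 in all, for 18S and 28S rRNA. Per the file headers they hold, for each position, counts of crossing reads in all and by base, the stops, and the mismatch rate and stop frequency as fractions. Both fractions were recomputed within 1e-09 at every position of these tables. Trimmomatic 0.32 and Bowtie 1.0 are named, per the submitters' processing notes. What is not given in the sources used here includes their settings, the origin of the reference and the program that counted reads. The stop placement was checked: in 12 of 12 tables the first rise in crossing reads, 2 nt 3′ of the first position, equals the stop count there. Whether a stop is booked at the last base copied or the next one is not settled by this. Positions are those of the deposited sequences, so no genome build applies.

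Shares were compared between the CMC and mock library of a condition by the Fisher test described above (scipy 1.17.1, Python 3.11.15), which was tested on simulated data first. Medians over listed positions are descriptions. Differences between conditions have 95% intervals from binomial variances of 4 libraries.

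The positions and lists were chosen with earlier results of these data known. The 1-methyladenosine and ribose-methylated positions come from general knowledge. Named were all listed positions, per condition and measure the 3 called unlisted positions with the largest rise and the 2 with the largest fall, up to 6 unlisted positions called in all 3 conditions, and those with at least 5% mismatches in all 6 libraries. Neighbours of the 1-methyladenosine and of the clusters, A1345 and U1735 were added after their values were seen. The alternatives were a coverage minimum of 1000, bars of 2 and 10 points, reads pooled over sites, single sites only, and the change of unlisted bases subtracted.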

Additional observations from a re-analysis of the deposited data

How the results depend on the processing

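No paired analysis was possible because each group has 1 library and the replicate numbers are only names. A coverage minimum of 1000 could remove no position of the stretch, whose least covered one had 17218 reads, so it tests nothing here. The counts follow the bar, by its construction. Shares over both rRNAs are given for the bar of 5 points only, so the counts at other bars do not compare the stretch with the background. With a bar of 2 points the higher mismatch calls were 27 in HIV RT, 31 in SSIII-Mn and 1 in SSIII-Mg, the lower ones 1 in SSIII-Mn and 1 in SSIII-Mg, the higher stop calls 126, 109 and 109, and the lower ones 50, 24 and 25. With a bar of 10 points the higher mismatch calls were 2 in HIV RT and 0 in SSIII-Mn, the higher stop calls 20, 21 and 22, and the lower ones 4, 1 and 0. The median mismatch difference at the 10 pseudouridines was 9.08, 3.68 and 0.863 points in HIV RT, SSIII-Mn and SSIII-Mg with reads pooled over sites, 3.02, 3.44 and 0.633 with the 5 single sites only, and 6.93, 2.59 and 0.341 with the median of unlisted uridines subtracted. The median stop difference was 20.8, 18.6 and 30.5 points pooled, 22.4, 13.6 and 32.6 with single sites only, and 14.4, 10.9 and 13.5 with that subtraction. All kept their direction. With single sites only, the mismatch medians of HIV RT and SSIII-Mn changed order. Of 234 values at named positions with the median of unlisted bases subtracted, 201 kept their call and moved within counting error, 32 moved beyond it, 1 lost its call (C1674 in SSIII-Mn, 4.91 points) and 0 reversed. With 1 library per group, a difference between libraries and one between treatments cannot be told apart.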

Other observations

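A pair of positions outside the lists, added after their values were seen, carried mismatches without CMC. At A1345 the mismatch share was 3.35% with CMC and 3.51% without in HIV RT, 3.23% and 3.27% in SSIII-Mn, and 3.41% and 3.35% in SSIII-Mg. Guanosine made up 91.8% to 99.6% of these mismatched reads over the libraries, and the share was nearly the same for every enzyme, ion and treatment. At U1735 it was 0.568% and 0.278% in HIV RT, 6.26% and 5.56% in SSIII-Mn, and 0.936% and 0.781% in SSIII-Mg. In SSIII-Mn adenosine made up 99.5% and 99.6% of the mismatched reads, and in HIV RT, where cytidine led, 25.8% and 32.2%. The reads of near-identical rDNA copies are not separated in the tables, and their part was not tested.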
